A study of Mus musculus with 9 samples.

Results

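The 6 genes described here are the GLI transcription factors Gli1, Gli2 and Gli3 and 3 genes whose products act with them, Sufu, Kif7 and Zic2. Their H3K27ac peaks were taken from 3 lists, as every peak within the gene span or 50 kb to either side of it (GENCODE M21, GRCm38, the Ensembl name of mm10). The 6 windows held 60 of the 25096 peaks called in WT, 66 of the 32085 called in Shh-/- and 61 of the 34641 called in Shh-/-;Gli3-/- limb buds. H3K27ac, acetylation of histone H3 at lysine 27, marks promoters and enhancers in use.

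Hedgehog (HH) ligands act through the GLI proteins, zinc finger factors that bind the same DNA sequence. Without ligand, GLI3 and to a lesser degree GLI2 are cut to truncated repressors, and with ligand the full-length proteins activate transcription. GLI1 has no repressor form, and its transcription depends on HH signaling in many tissues. SUFU binds GLI proteins and restrains them, KIF7 is a kinesin of the primary cilium through which the signal passes, and ZIC2 is a related zinc finger factor. In the limb bud, SHH is made at the posterior margin, and GLI3 repressor prevails in the anterior part.

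The mark was profiled by MicroChIP-seq, chromatin immunoprecipitation adapted to few cells, in mouse forelimb buds of E10.5 embryos with 33 to 34 somites. The labels give a mixed strain, and the study's methods give Swiss Webster for the stocks of both null alleles. The groups were WT embryos, Shh-/- embryos, which carry a null allele of the ligand Shh in both copies, and Shh-/-;Gli3-/- embryos, which also carry the Gli3 allele Xt-J in both copies, known as a deletion of the 3′ part of that gene. Each genotype had 2 H3K27ac libraries and 1 input library, and each immunoprecipitation used the forelimb pair of 1 embryo. The values used here are 1 peak list per genotype, and these lists give none for single libraries, so the variation among embryos could not be computed from them and no difference below was tested against it. A gene without a peak has no region above the peak caller's threshold, which does not show that the mark was absent. In whole limb buds, fewer acetylated cells and less acetylation per cell cannot be told apart.

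The WT list covered 10.4 Mb, the Shh-/- list 12.9 Mb and the Shh-/-;Gli3-/- list 17.1 Mb, so a gain of covered length in a mutant has to be read against this growth of the lists by 1.25 and 1.66 times. The share of peaks with a deposited false discovery rate (FDR) below 0.05 was 60.8%, 72.4% and 83.4% in that order. Library depth was not used here. The lists fitted the labelled tissue: all 8 forelimb mesenchyme genes examined (among them Prrx1, Tbx5 and Twist1) had a promoter peak in every list, and neither of the 2 hindlimb genes, Pitx1 and Tbx4, had one in any. Of 12 genes of muscle precursors, endothelium, blood and neural cells, Lbx1 and Pecam1 had a promoter peak in the Shh-/-;Gli3-/- list and none had one in the others; whether this bears on the results below was not tested. Shh itself had no peak in its window in any genotype, so the lists could not check that deletion.

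Promoter acetylation was kept at most of these genes. A promoter peak, lying between 2 kb before and 1 kb after a transcription start, was found at 6 of 6 genes in WT, 5 of 6 in Shh-/- and 4 of 6 in Shh-/-;Gli3-/- limb buds. Among 21827 protein-coding genes the shares were 44.3%, 48.2% and 46.3%. Gli2, Gli3, Sufu and Zic2 had a promoter peak in every list. Gli1 had one in WT alone. Kif7 had one in WT, with an FDR of 0.127, and in Shh-/- limb buds. One of the 6 WT promoter peaks was thus missing in Shh-/- and 2 in Shh-/-;Gli3-/- limb buds, where 3.78% and 3.85% of the 9661 genes with a WT promoter peak had none.

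**Figure D1:**
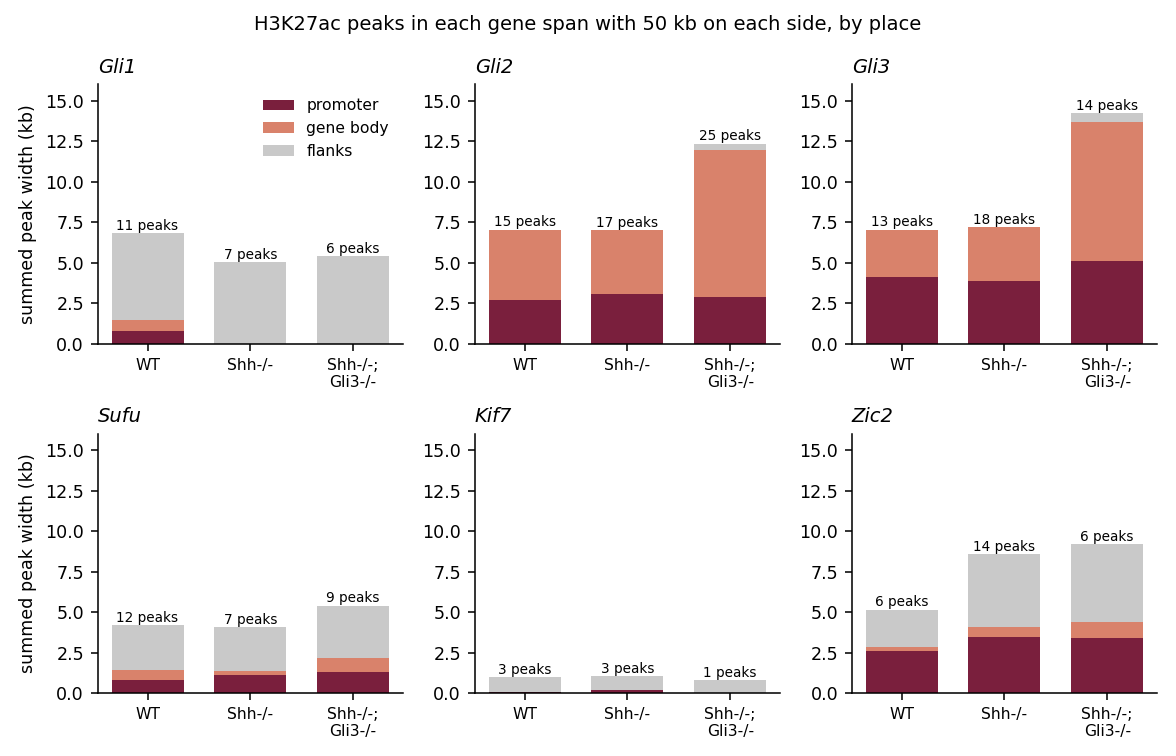
Summed width of H3K27ac peaks (kb, vertical axis) in each gene window for the 3 peak lists (horizontal axis), split into peaks at the promoter, other peaks in the gene body and peaks in the flanks, with the number of peaks above each bar. There is 1 list per genotype, so no error bar can be drawn. Gli1 has promoter and gene body peaks in WT alone, while the bars of Gli2 and Gli3 rise from 7.05 kb in WT to 12.3 and 14.2 kb in Shh-/-;Gli3-/- limb buds.

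Gli1, the direct transcriptional target of HH signaling among the 3 factors, had acetylated chromatin at its 5′ end in WT limb buds and in neither mutant. The gene is on the minus strand of chromosome 10 (127329882 to 127341974, 13 exons). In WT, 6 peaks of 100 to 500 bp covered 1500 bp between 127339500 and 127341999. The Shh-/- and Shh-/-;Gli3-/- lists held 0 peaks anywhere in its promoter or gene body, and their nearest peaks were 27.5 and 27.8 kb away. The double mutant thus lacked called acetylation at Gli1 just as the Shh-/- mutant did.

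The strongest of the 6 WT peaks lay over the start and exon 1 (127341500 to 127341999). Its log2 fold over input was 3.59, its FDR 0.001262, and 18.8% of the WT list ranked higher. A pair of weaker promoter peaks followed at 127341200 and 127340950, with log2 folds of 2.22 and 2.17 and FDRs of 0.254 and 0.297. The other 3 were in intron 2, at 1.32, 1.98 and 2.32 kb from the start, with log2 folds of 3.28, 3.04 and 2.44. At an FDR below 0.05, 3 of the 6 remained: the one over the start and the 2 stronger intronic ones.

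The 3 intronic peaks are printed below, 5′ to 3′ on the minus strand of GRCm38 with CpG dinucleotides in capitals, because they are the intronic bases of Gli1 that the WT list holds and both mutant lists lack.
Gli1 intron 2, chr10:127340350-127340649: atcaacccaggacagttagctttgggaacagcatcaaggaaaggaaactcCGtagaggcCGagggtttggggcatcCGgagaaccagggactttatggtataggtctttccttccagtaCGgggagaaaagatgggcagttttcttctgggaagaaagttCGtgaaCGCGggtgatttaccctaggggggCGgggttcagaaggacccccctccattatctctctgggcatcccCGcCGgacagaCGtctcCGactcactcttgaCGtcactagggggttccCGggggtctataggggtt
Gli1 intron 2, chr10:127339750-127339999: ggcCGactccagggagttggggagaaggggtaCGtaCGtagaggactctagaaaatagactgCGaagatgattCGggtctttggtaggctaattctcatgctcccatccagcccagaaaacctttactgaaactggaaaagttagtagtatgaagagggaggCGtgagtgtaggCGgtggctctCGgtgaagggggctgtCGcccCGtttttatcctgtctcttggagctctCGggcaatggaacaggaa
Gli1 intron 2, chr10:127339500-127339649: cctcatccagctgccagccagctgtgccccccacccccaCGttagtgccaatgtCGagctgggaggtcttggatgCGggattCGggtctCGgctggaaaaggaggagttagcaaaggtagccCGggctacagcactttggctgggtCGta
They hold 14, 11 and 7 CpG dinucleotides in 300, 250 and 150 bases. The median 300-base window centred on a WT peak summit holds 9. None of them contains the GLI motif GACCACCCA on either strand. The 150-base peak contains 1 stretch that matches 8 of its 9 letters.

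**Figure D2:**
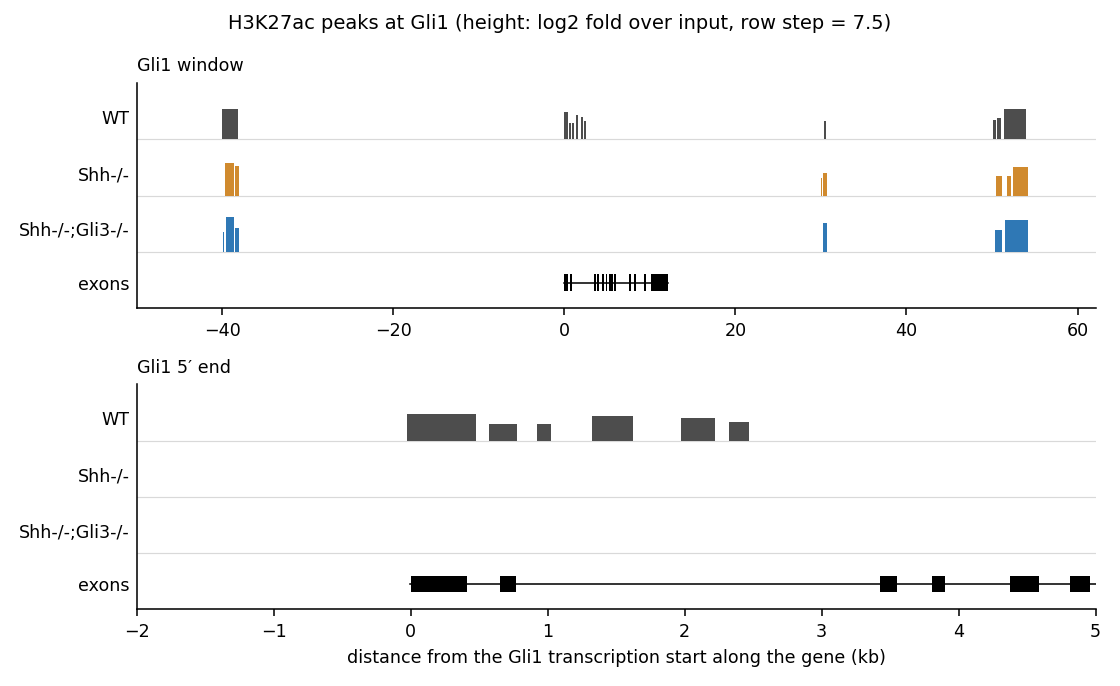
Peaks at Gli1 by distance from its transcription start along the gene (kb), in the whole window and at the 5′ end. Each block is a peak, its height is the log2 fold over the input of that genotype (rows are 7.5 log2 units apart), and black boxes are exons. The 6 WT blocks between 0 and 2.5 kb have no counterpart in the mutant rows, while the peaks about 30 to 54 kb downstream and 38 to 40 kb upstream appear in all 3.

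The remainder of the Gli1 window did not follow this pattern. Its flanks held 5 peaks in WT, 7 in Shh-/- and 6 in Shh-/-;Gli3-/- limb buds, covering 5350, 5050 and 5400 bp. All but 1 of these 18, a 150 bp Shh-/-;Gli3-/- peak, lay at promoters of neighbouring genes, namely Mbd6, Ddit3, Mars and R3hdm2. At R3hdm2 the strongest peak had 11.6%, 8.17% and 6.55% of its list ranked above it in WT, Shh-/- and Shh-/-;Gli3-/- limb buds, and at Mbd6 and Ddit3 these shares were 11.1%, 17.4% and 11.2%. The neighbours were thus called in every list. Ranks are given because each fold is relative to the input of its own genotype.

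The pattern of Gli1 was uncommon among genes. Of the 9661 genes with a WT promoter peak, 136 (1.41%) had no peak in promoter or gene body in either mutant list. Gli1 had the largest WT covered length of these 136, at 1500 bp against 550 bp for the next, and the most peaks, 6 against 3. The median of the 136 was 150 bp, and 120 of them (88.2%) had a single peak. No gene other than Gli1 reached its covered length, so none is named as like it. The loss also concerned a strong peak: of 1051 WT peaks with a log2 fold from 3.5 to below 3.7, 11 (1.05%) overlapped no peak of either mutant, and the Gli1 start peak was among them. For WT peaks with a log2 fold from 3.0 to below 3.2, like the weaker of the 2 intronic peaks that passed the FDR, the share was 10.3% (185 of 1804), and from 3.2 to below 3.4, like the stronger one, it was 5.07% (70 of 1380).

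Gli3, which encodes the main HH-dependent repressor of the limb, had the largest summed peak width of the 6 windows in Shh-/-;Gli3-/- limb buds, in the longest window. It is on the plus strand of chromosome 13 (15463235 to 15730026, 15 exons), and no other protein-coding gene lies within 50 kb. Its window held 13 peaks of 7050 bp in all in WT, 18 of 7200 bp in Shh-/- and 14 of 14250 bp in Shh-/-;Gli3-/- limb buds. Covered length was thus 1.02 times WT in Shh-/- and 2.02 times WT in Shh-/-;Gli3-/- limb buds. The median ratios over 15833 genes with a WT peak in the window were 1.18 and 1.30, and the ratios of Gli3 were above those of 32.6% and 85.7% of these genes.

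The promoter peak of Gli3 was wide in every list and ranked highest in the double mutant. It spanned 3850 bp in WT, 3900 bp in Shh-/- and 5100 bp in Shh-/-;Gli3-/- limb buds. The share of its list that ranked higher was 6.42% in WT, 4.26% in Shh-/- and 0.222% in Shh-/-;Gli3-/- limb buds, where it was number 78. Its log2 folds, each against its own input, were 4.42, 4.79 and 6.28. The promoter of the mutant Gli3 allele, whose deletion is in the 3′ part of the gene, was thus acetylated.

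The intronic peaks of Gli3 lay in introns 1 to 3 in all lists, with 1 exception in intron 10. They numbered 11 in WT, 16 in Shh-/- and 10 in Shh-/-;Gli3-/- limb buds, and 1 further peak of each mutant touched an exon. Intronic covered length was 2950 bp in WT, 3150 bp in Shh-/- and 6750 bp in Shh-/-;Gli3-/- limb buds. The double mutant thus had no more intronic peaks than WT and the largest covered length, since its peaks were wider: their median width was 475 bp, against 200 bp in WT and 150 bp in Shh-/-, and 4 of 10 were 1 kb or wider, against 0 in the other lists. Peaks of 1 kb or more also made up more of the whole Shh-/-;Gli3-/- list, at 12.8% against 8.84% in WT and 8.60% in Shh-/-. With the lists shortened by rank to an equal covered length, Gli3 intronic coverage was 2950, 1650 and 2800 bp, so the excess in the double mutant did not hold under that setting.

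Outside intron 1, most of the gene body peaks lay in 1 stretch of introns 2 and 3, 77.7 to 97.0 kb from the start (15541700 to 15560999, 19.3 kb). Peaks there covered 1900 bp in WT, 2250 bp in Shh-/- and 7550 bp in Shh-/-;Gli3-/- limb buds, in 8, 11 and 10 peaks. The last value includes a peak of 1850 bp that touches exon 3 and is not part of the 6750 intronic bp above. At an FDR below 0.05 there were 4, 5 and 9. That peak (15547550 to 15549399) was the widest, and the one with the highest log2 fold, 3.97, followed it in intron 3 (15549600 to 15551249). Both had a −log10 p of 100, the highest value the lists give.

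Within this stretch WT and Shh-/- peaks mostly fell on different bases. Only 2 of 8 WT peaks overlapped a Shh-/- peak, with 300 bp in common, which is 15.8% of the WT and 13.3% of the Shh-/- bases. In the whole list, 63.4% of WT peaks overlapped a Shh-/- peak. The 8 WT peaks had log2 folds of 2.23 to 3.1, and 4 had an FDR below 0.05. Of the 8, 3 overlapped neither mutant list. Of all WT peaks with log2 folds from 2.2 to below 2.7, 39.4% overlapped neither mutant list. In the whole WT list this share was 24.1%. The share that overlapped a Shh-/- peak was not computed by log2 fold. Whether peak strength accounts for the low overlap here was not tested. The broad Shh-/-;Gli3-/- peaks covered 78.9% of the WT bases (1500 of 1900) and 86.7% of the Shh-/- bases (1950 of 2250). The bases common to all 3 lists were 3 runs of 100 bp in intron 2. The second run rests on a Shh-/- peak with an FDR of 0.132, and the third on a WT peak with an FDR of 0.171. The runs are printed here on the plus strand of GRCm38 with CpG dinucleotides in capitals.
Gli3 intron 2, chr13:15543700-15543799: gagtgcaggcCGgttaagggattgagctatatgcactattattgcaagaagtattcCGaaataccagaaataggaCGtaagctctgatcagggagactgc
Gli3 intron 2, chr13:15544000-15544099: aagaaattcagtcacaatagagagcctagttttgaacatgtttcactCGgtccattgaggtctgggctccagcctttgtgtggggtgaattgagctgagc
Gli3 intron 2, chr13:15545450-15545549: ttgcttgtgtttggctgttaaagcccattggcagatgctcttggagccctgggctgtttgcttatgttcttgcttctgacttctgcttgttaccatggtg
They contain 3, 1 and 0 CpG dinucleotides in 100 bases each, fewer per base than the Gli1 intronic peaks. The median WT summit window holds 9 in 300 bases, a density that the first run has and the other 2 fall below. None of the 3 runs has a stretch that matches the GLI motif in 8 or more letters.

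**Figure D3:**
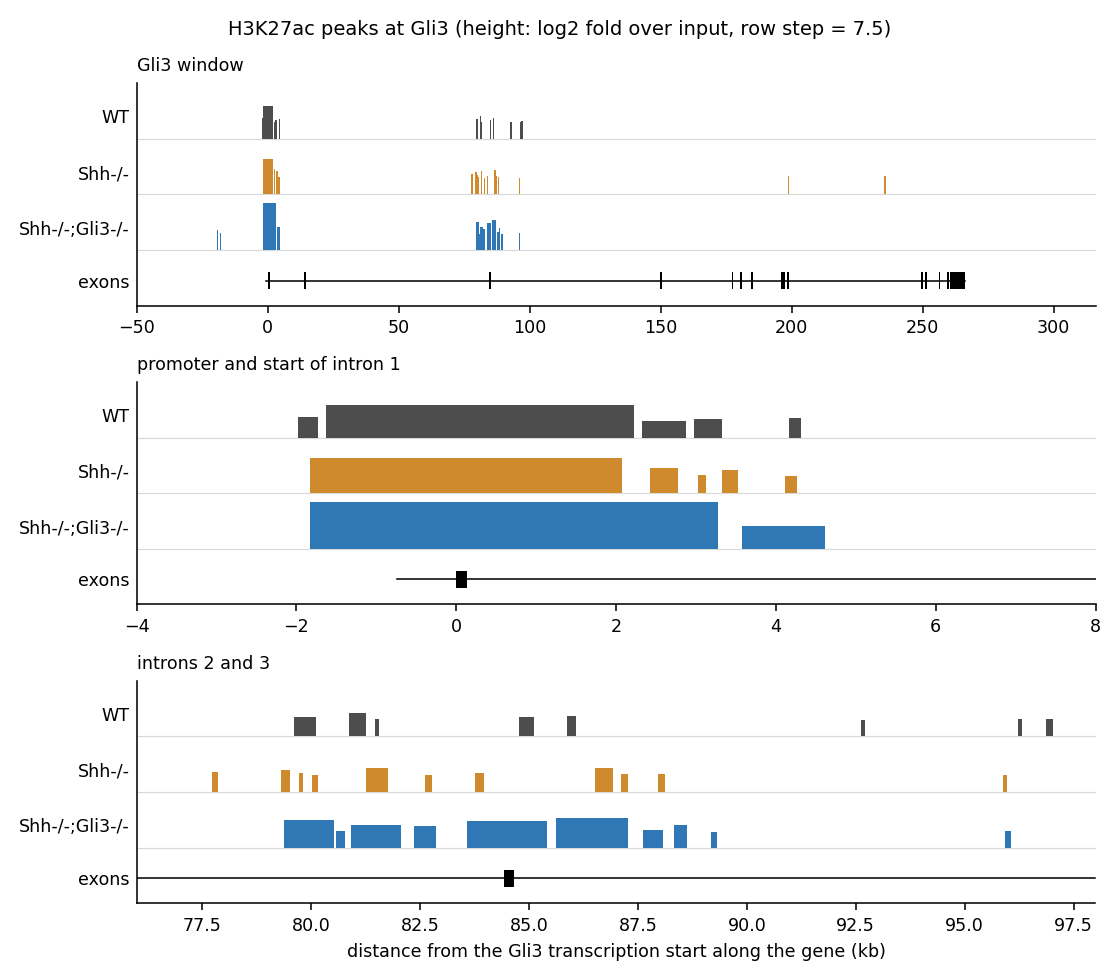
Peaks at Gli3 by distance from the start of its reference transcript along the gene (kb), in the whole window, around the promoter and in introns 2 and 3. Each block is a peak with the log2 fold over the input of that genotype as its height (rows are 7.5 log2 units apart), and black boxes are exons. Short, scattered blocks in WT and Shh-/- contrast with broad blocks in Shh-/-;Gli3-/- limb buds between about 79 and 89 kb.

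Near the promoter, in intron 1, the 3 lists differed in how the same stretch was divided. WT had 3 peaks there covering 1050 bp, Shh-/- had 4 covering 800 bp and Shh-/-;Gli3-/- had 1 of 1050 bp, beside a promoter peak that reached farther into the intron than in the other lists. The 3′ part of the gene held almost nothing: from exon 4 to the gene end, 116 kb, WT and Shh-/-;Gli3-/- limb buds had 0 peaks and Shh-/- limb buds had 2 of 150 and 100 bp, in exon 10 and intron 10, with FDRs of 0.0842 and 0.0832. Since WT had no peak in the 3′ part, the deletion of Xt-J could not be checked from the lists. The 2 flanking peaks of the window, about 18 and 19 kb upstream, were in the Shh-/-;Gli3-/- list and covered 550 bp.

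Gli2, which encodes the main full-length activator, resembled Gli3 in its promoter and in its gain of intronic length in the double mutant. It is on the minus strand of chromosome 1 (118834132 to 119053619, 14 exons), with no neighbouring protein-coding gene in its window. The window held 15 WT, 17 Shh-/- and 25 Shh-/-;Gli3-/- peaks that covered 7050, 7000 and 12350 bp. The ratios to WT, 0.993 and 1.75, were above those of 27.8% and 78.8% of genes. Its main promoter peak measured 2700, 3100 and 2800 bp, with 14.5%, 10.4% and 4.48% of each list ranked higher.

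Intronic peaks of Gli2 numbered 14 in WT, 16 in Shh-/- and 19 in Shh-/-;Gli3-/- limb buds and covered 4350, 3900 and 8800 bp. In Shh-/-;Gli3-/- limb buds, Gli2 and Gli3 thus had 2.02 and 2.29 times the intronic coverage of WT. Among 2775 genes with a WT intronic peak, 31.1% had at least 2 times the WT coverage in Shh-/-;Gli3-/- and 16.9% in Shh-/- limb buds. Of the 4 genes described here with a WT intronic peak, 2 did so in the double mutant (Gli2 and Gli3, while Sufu had 1.31 times and Gli1 none) and 0 in Shh-/- limb buds. With lists of equal covered length, Gli2 intronic coverage was 4350, 2700 and 5050 bp, so most of the gain over WT in the double mutant did not hold under that setting.

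The intronic peaks of Gli2 formed separate stretches that the lists shared unequally. Closest to the promoter, in intron 1 and 4.47 to 6.12 kb from the start, every list had strong peaks. WT had 2 of 750 and 500 bp with log2 folds of 3.39 and 3.13, Shh-/- had 1 of 1400 bp with 4.44, and Shh-/-;Gli3-/- had 1 of 1650 bp with 4.81. It was the highest-ranked intronic peak of the 6 genes in each list, with 23.3%, 7.78% and 5.44% of the list above it. A second stretch of intron 1, 18.9 to 22.4 kb from the start, covered 800, 350 and 1350 bp.

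In intron 2, a stretch 144 to 152 kb from the start had 4 peaks in WT, 8 in Shh-/- and 5 in Shh-/-;Gli3-/- limb buds, of 1050, 1400 and 2950 bp in all, and in the double mutant a single peak spanned 2050 bp (118903750 to 118905799). At 2 other places in this intron, WT and Shh-/-;Gli3-/- limb buds had peaks and Shh-/- limb buds had none. At 68.9 to 72.6 kb, 3 WT peaks covered 750 bp and 5 Shh-/-;Gli3-/- peaks 1700 bp. At 136 to 137 kb, 2 WT peaks with FDRs of 0.254 and 0.106 covered 400 bp and 4 Shh-/-;Gli3-/- peaks 750 bp. These peaks only partly shared bases. The WT peaks that start at 118982150, 118983000 and 118917000 overlapped no peak of either mutant, and those at 118983250 and 118916650 overlapped a Shh-/-;Gli3-/- peak. In turn, 5 Shh-/- peaks of this intron overlapped no peak of the other lists, 3 of them in the stretch at 144 to 152 kb and 2 at 79.6 and 84.3 kb. By peak, 5 of 15 WT peaks of Gli2 (33.3%, Wilson 95% interval 15.2 to 58.3%) overlapped a Shh-/-;Gli3-/- peak and no Shh-/- peak, and 0 overlapped a Shh-/- peak alone; in the whole WT list these shares were 12.5% and 5.14%. Some of these 5 peaks lay in regions called in all 3 lists, which the lists split differently. With peaks merged over the lists, 3 of the 36 Gli2 regions were in WT and Shh-/-;Gli3-/- and not in Shh-/- limb buds. The intervals cover counting error over peaks, counted separately even within 1 region, and not variation between embryos.

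**Figure D4:**
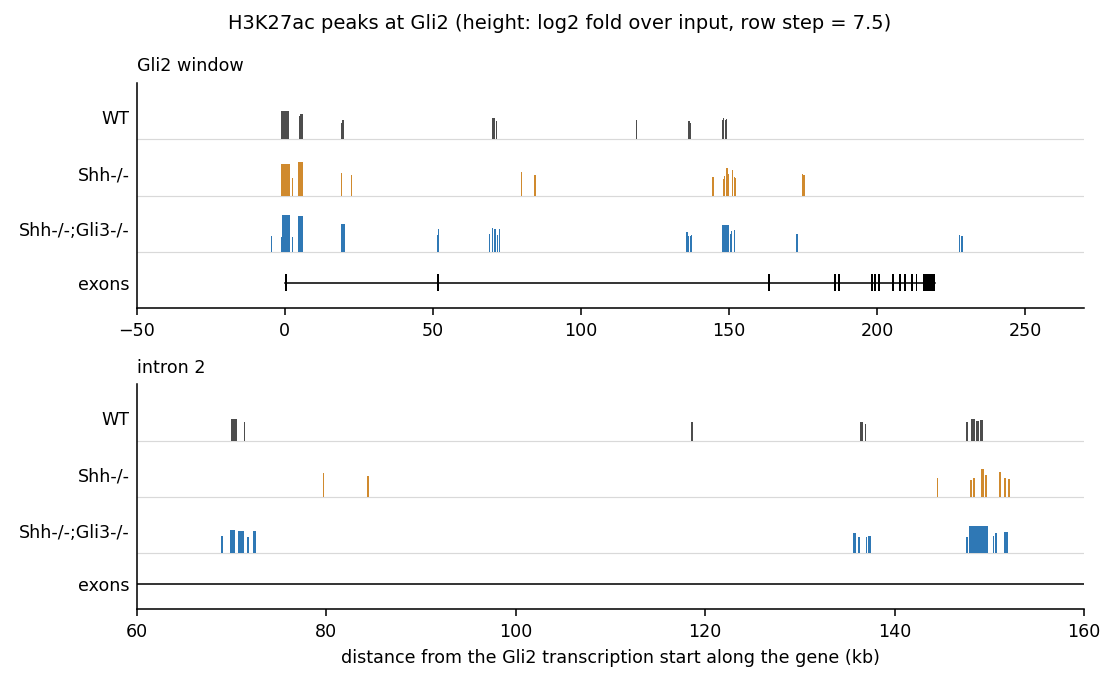
Peaks at Gli2 by distance from its transcription start along the gene (kb), in the whole window and in intron 2. Each block is a peak with the log2 fold over the input of that genotype as its height (rows are 7.5 log2 units apart), and black boxes are exons. Blocks near 70 and 136 kb are present in WT and Shh-/-;Gli3-/-, only partly on the same bases, and missing in the Shh-/- row. Those near 5 and 148 kb are present in all 3.

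As the promoter and the intron 1 region of Gli2 were acetylated in every list, one stretch of each is shown on the minus strand of GRCm38 with CpG dinucleotides in capitals, namely the 250 bases upstream of the gene and the middle 300 of the 700 intronic bases common to all lists.
Gli2 promoter, chr1:119053620-119053869: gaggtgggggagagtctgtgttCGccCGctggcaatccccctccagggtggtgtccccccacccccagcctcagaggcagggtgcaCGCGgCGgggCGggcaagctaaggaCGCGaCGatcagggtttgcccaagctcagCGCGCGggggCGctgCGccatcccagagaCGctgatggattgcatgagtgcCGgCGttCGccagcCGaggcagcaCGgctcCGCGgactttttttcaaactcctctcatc
Gli2 intron 1, chr1:119047800-119048099: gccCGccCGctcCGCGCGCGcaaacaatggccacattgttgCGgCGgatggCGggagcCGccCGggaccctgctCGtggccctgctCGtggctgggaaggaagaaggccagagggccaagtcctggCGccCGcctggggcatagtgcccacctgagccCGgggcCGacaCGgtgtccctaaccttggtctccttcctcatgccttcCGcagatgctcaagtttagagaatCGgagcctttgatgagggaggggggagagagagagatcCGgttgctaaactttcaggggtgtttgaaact
They hold 22 and 21 CpG dinucleotides. The RefSeq promoter table (GRCm38.p6, 250 bases before to 50 after the start) listed 4 of the 6 genes, which had 28 (Gli2), 39 (Gli3), 12 (Sufu) and 31 (Kif7) CpG dinucleotides in 300 bases, against a median of 7 over its 32851 promoters. Gli1 and Zic2 were not in it. None of the 4 contained GACCACCCA, which 83 promoters of the table did (0.253%).

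The exact motif was found at 10 places in the 6 windows, of which 6 were in that of Gli2, 2 in that of Gli1 and 1 each in those of Gli3 and Sufu. None of the 10 lay in a peak of any list. In 300-base windows on the peak summits it occurred in 0.303% of all WT, 0.240% of all Shh-/- and 0.225% of all Shh-/-;Gli3-/- peaks, so few matches could be seen in 60 to 66 peaks. Allowing 1 letter to differ, 2 of 11 WT peaks in the Gli1 window, 2 of 15 at Gli2 and 0 of 13 at Gli3 had a match, against 7.24% of all WT peaks. In WT, 3 of 12 peaks at Sufu, 1 of 3 at Kif7 and 0 of 6 at Zic2 had one. In the Gli1 window, 0 of 7 Shh-/- and 0 of 6 Shh-/-;Gli3-/- peaks did. All of these mutant peaks lay in the flanks, so the counts do not compare the Gli1 gene itself between genotypes. A missing match says nothing of GLI binding.

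Sufu kept its promoter acetylation in every list. The gene is on the plus strand of chromosome 19 (46396896 to 46488804). Its peak over or just after the start measured 550 bp in WT, 700 bp in Shh-/- and 900 bp in Shh-/-;Gli3-/- limb buds, with 27.4%, 18.7% and 10.9% of the list ranked higher, and a second peak upstream of the start measured 250, 400 and 400 bp. Both also lie in the promoter window of the neighbour Actr1a. Weak WT peaks in its introns were not found again: 5 of 100 to 200 bp, 1 of them with an FDR below 0.05, were overlapped by no mutant peak. Their log2 folds were 2.25 to 2.69, and 39.4% of all WT peaks with log2 folds from 2.2 to below 2.7 overlapped neither mutant list. The double mutant had 2 intronic peaks of its own in intron 2, of 500 and 350 bp with log2 folds of 3.33 and 3.15, and Shh-/- limb buds had 1 peak touching an exon, of 250 bp with 3.52. The widest peaks of the window, of 2200, 2250 and 2550 bp, were at Trim8.

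Kif7 had the smallest summed peak width of the 6 windows in every list, and most of it lay at a neighbour. The gene is on the minus strand of chromosome 7 (79698098 to 79715720), and its only peak was in intron 1, starting 0.171 kb from the start in WT and 0.121 kb in Shh-/- limb buds. It measured 100 bp in WT, where its FDR was 0.127, and 200 bp in Shh-/- limb buds, where its FDR was 0.0247. The Shh-/-;Gli3-/- list had none. In WT 72.8% and in Shh-/- limb buds 61.6% of the list ranked higher, so this promoter was in the lower-ranked part of both lists. The rest of its window held the promoter peaks of Ticrr, which covered 900, 850 and 800 bp.

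The window of Zic2 gained coverage in both mutants, much of it in the flanks. The gene is on the plus strand of chromosome 14 (122475435 to 122479852), next to Zic5, which is transcribed in the opposite direction and starts within the same window. The window held 6 peaks of 5150 bp in all in WT, 14 of 8600 bp in Shh-/- and 6 of 9200 bp in Shh-/-;Gli3-/- limb buds, or 1.67 and 1.79 times WT, above 82.3% and 79.9% of genes. The flanks held 2300, 4500 and 4800 bp of these. Promoter and gene body alone were covered 1.44 and 1.54 times WT, where the whole lists grew 1.25 and 1.66 times. In WT the promoter was split into 2 peaks of 1900 and 700 bp, and in the mutants it was 1 peak of 3450 or 3400 bp. All 6 WT peaks overlapped a Shh-/- peak and 5 of 6 a Shh-/-;Gli3-/- peak. A peak about 10 kb downstream was in both mutants and not in WT, with 150 bp and a log2 fold of 2.29 in Shh-/- and 650 bp and 3.85 in Shh-/-;Gli3-/- limb buds.

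Set side by side, the 6 windows were covered more than in WT in 3 cases in Shh-/- limb buds (Gli3, Kif7 and Zic2, the first 2 by at most 1.05 times) and in 4 cases in Shh-/-;Gli3-/- limb buds (Gli2, Gli3, Sufu and Zic2). Over 15833 genes the shares were 68.1% and 80.2%, so these counts are near or below the background. The lowest ratio in Shh-/- limb buds was that of Gli1, 0.737, and in Shh-/-;Gli3-/- limb buds Gli1 and Kif7 had 0.788 and 0.800, above 8.46% and 8.60% of genes. The 2 mutant ratios share the WT list.

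**Figure D5:**
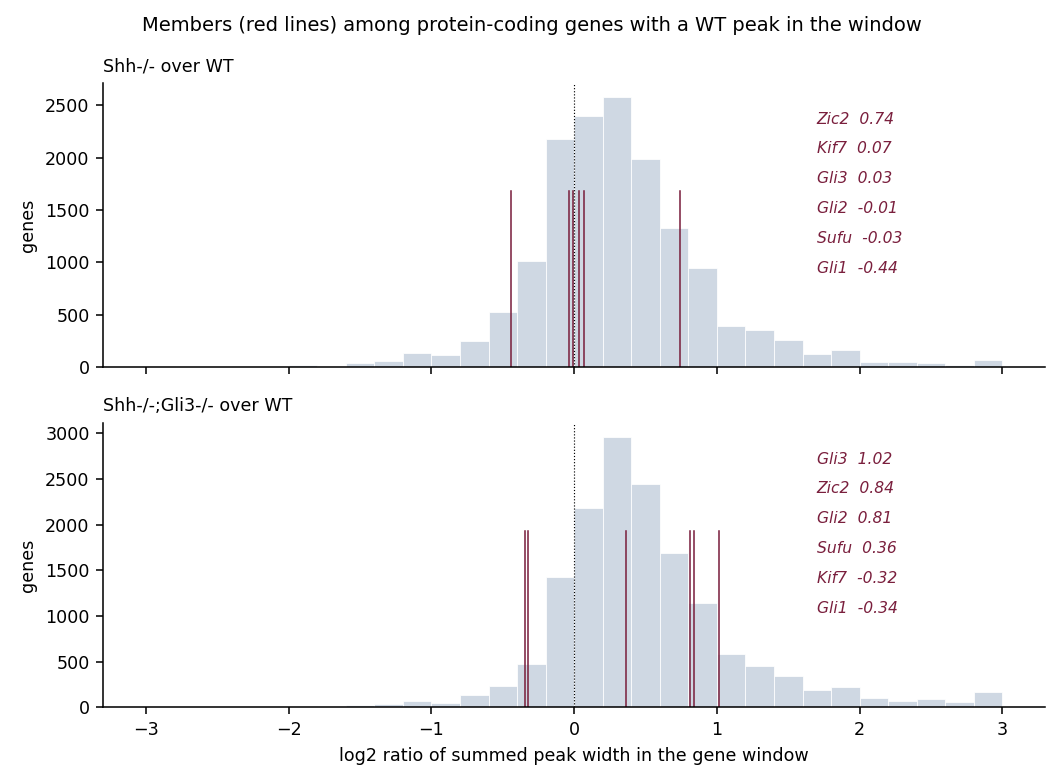
Number of protein-coding genes (vertical axis) by the log2 ratio of summed peak width in the gene window of each mutant list to WT (horizontal axis), for genes with a WT peak in the window. Red lines mark the 6 genes, with their values at the right, the outermost bars also hold values beyond the axis, and 650 and 628 genes with no mutant peak are left out. Gli1 lies left of 0 in both panels, and Gli3, Zic2 and Gli2 are farthest to the right in Shh-/-;Gli3-/- limb buds.

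Peak by peak, 28 of the 60 WT peaks overlapped a Shh-/- peak (46.7%, 34.6 to 59.1%) and 37 overlapped a Shh-/-;Gli3-/- peak (61.7%, 49.0 to 72.9%). The whole WT list gave 63.4% and 70.8%, and 24.1% of it overlapped neither, against 21 of the 60 (35.0%, 24.2 to 47.6%). The shares found in the 2 mutants come from the same 60 peaks, so their intervals do not compare them. Of the 60, 11 (18.3%) overlapped a Shh-/-;Gli3-/- peak and no Shh-/- peak, and 2 (3.33%) the reverse. In the whole WT list these shares were 12.5% and 5.14%. By gene, the Shh-/- share ran from 3 of 12 at Sufu to 6 of 6 at Zic2. Merged over the lists, the peaks formed 97 regions, of which 22 were in all 3 lists, 21 in WT alone, 16 in Shh-/- alone, 22 in Shh-/-;Gli3-/- alone, 10 in both mutants, 4 in WT and Shh-/-;Gli3-/-, and 2 in WT and Shh-/-. Of the 21 regions in WT alone, 6 were those of Gli1 and 7 those of Sufu. Gli2 contributed 15 of the 22 regions of Shh-/-;Gli3-/- alone, and 36 of the 97 in all. The same split was not computed for all regions of the 3 lists, which differ in size. These counts therefore do not show whether the 6 windows differ from those of other genes.

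Genes that act on GLI proteins were acetylated at their promoters with few exceptions. In a list of 26 kinases, ubiquitin ligase parts, ciliary proteins and corepressors, 23 had a promoter peak in WT, 24 in Shh-/- and 25 in Shh-/-;Gli3-/- limb buds, against 44.3%, 48.2% and 46.3% of all protein-coding genes. In every list 22 had one, among them Gsk3b, Prkaca, Spop, Btrc, Ski and Hdac1. No gene of the list lost its promoter peak in both mutants as Gli1 did. Evc, a ciliary protein of the HH response, and Kif3a, a motor subunit of ciliary transport, had a peak in both mutants and not in WT. The kinase Ulk3 had none in Shh-/- limb buds, and Gpr161, a ciliary receptor that favours GLI repressor formation, had none in any list. Among related zinc finger genes, Glis2 and Zic5 had a promoter peak in every list, Glis1 and Glis3 in Shh-/- limb buds alone, and Zic1 and Zic4 in none. The Zic5 promoter lies in the Zic2 window, so its peaks were also counted there.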

How the data were processed

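H3K27ac was profiled in 2 libraries and 1 input of each of 3 genotypes, named by their titles; the genotype field of the labels reads wild type throughout and was not used. The submitters' processing notes name Bowtie2 2.2.5 and mm10. The study's methods name CisGenome 2.1.0 for peak calling and 2 biological replicates. The authors deposited 1 list per genotype, under its first H3K27ac library, and whether both libraries entered it is not stated with the list. The paper describes its own MicroChIP peaks, at an FDR below 0.05, as coming from 2 replicates. The deposited lists also hold peaks above that FDR. Each peak has the authors' score (the peak caller's statistic, which orders the list), the deposited log2 fold over input, the deposited −log10 p and the deposited FDR (a q-value), all as the authors computed them. Depth per library was not used. Peaks were counted as deposited, with starts and ends inclusive; whether the lists count from 0 or 1 is not stated. Genes are protein-coding genes of the GENCODE M21 basic set, and introns are those of 1 reference transcript. Overlap means at least 1 bp. Shares of peaks carry Wilson 95% intervals. No p-value was computed, since a genotype has 1 list and peaks are not replicates. Bases were read from GRCm38, within whose chromosome ends every peak on an assembled chromosome fell. The genes and lists were chosen with earlier results of these data known. All 6 genes are named, and of the gene lists those whose promoter peak differed between lists, with examples; 1 gene is not reported here. Scipy 1.17.1, pandas 2.3.3 and numpy 2.4.6 were used under Python 3.11.15, and counting was tested on simulated peaks. Alternatives were an FDR below 0.05 or 0.01, a log2 fold of at least 3, lists of equal number or covered length, merging within 1 kb, windows of 10 or 100 kb, a promoter of 1 kb on each side, and other overlap rules. Counting Gli3 peaks that touch an exon, motif matches of 8 letters and alternatives for Gli2 intronic coverage were added after seeing the data.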

Additional observations from a re-analysis of the deposited data

How the results depend on the processing

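With 1 list per genotype, leaving out a replicate could not be done. No paired analysis was possible because the peak lists, the only data used here, hold no value per replicate. Of 171 values for the comparisons under an alternative, 112 stayed within 1.5 times the reported count or, for shares of peaks, within its interval. Some of the 112 could not move. These were the mutant values at the Gli1 gene, which had no peak to lose, and WT counts and lengths under cuts to the WT list's size. The 112 are therefore not a measure of stability. Gli1 kept promoter or gene body peaks in WT under all 6 alternatives run for them. The mutant lists could not gain a peak there, because these alternatives only removed peaks or merged those within 1 kb. A looser peak call was not tried. Gli2 coverage was highest in Shh-/-;Gli3-/- under all 5 of its alternatives. Gli3 intronic coverage was highest there under 5 of 6, the exception being equal covered length. The order of Gli3 intronic peak numbers held under 2 of 7, and is not a stable feature. Lists are given in the order WT, Shh-/-, Shh-/-;Gli3-/-.

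At an FDR below 0.05, Gli1 kept 3 WT peaks, Gli2 had 9 in WT, Gli3 had 5 and 7 intronic peaks of 1600 and 1900 bp in WT and Shh-/-, the share of WT peaks found in Shh-/-;Gli3-/- was 82.9%, 5 windows were covered more in Shh-/- than in WT, and 4 had more peaks in Shh-/-;Gli3-/-. At an FDR below 0.01 these were 3 for Gli1, 6, 8 and 11 for Gli2, 1, 5 and 6 for Gli3 intronic peaks with 400 and 1650 bp in WT and Shh-/-, 81.8%, 5 windows and 4 windows. At a log2 fold of at least 3, Gli1 had 3 peaks, Gli2 had 3, 6 and 7 with 3950 bp in WT, Gli3 had 1, 4 and 5 intronic peaks with 400 and 1450 bp in WT and Shh-/-, 75% and 81.2% of WT peaks were found in the mutants, and 5 windows were covered more in Shh-/-. With equal numbers of peaks, Gli2 had 12 in Shh-/-;Gli3-/-, Gli3 had 9 intronic peaks in Shh-/-, and 1 window was covered more and 1 had more peaks in Shh-/-, and 0 had more in Shh-/-;Gli3-/-. With equal covered length, Gli2 had 8 and 4 peaks in the mutants and 7850 bp in Shh-/-;Gli3-/-, Gli3 had 5 and 2 intronic peaks of 1650 and 2800 bp, 33.3% and 43.3% of WT peaks were found, 1 window was covered more in Shh-/-, and 0 had more peaks in either mutant. Merged within 1 kb, Gli1 had 1 peak, Gli2 had 7, 10 and 8, and Gli3 had 4, 6 and 1 intronic peaks. A gap of up to 500 bp raised the share found in Shh-/- to 61.7%. Counts of these genes with a promoter peak stayed within 1.5 times. The cause of these shifts was not tested, beyond fewer peaks under each filter.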
